A study of Homo sapiens with 9 samples.

Results

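The 41 genes described here encode the desmosome, the cornified envelope and the kallikrein proteases of stratified epithelia. They were taken by symbol from the 60199 symbols of a table of raw RNA counts. The list was chosen with earlier results of these data known. All 41 were in the table, and 25 of them had enough counts to be tested. The counts came from MCF10A, a non-malignant human mammary epithelial line grown with horse serum, insulin, hydrocortisone, cholera toxin and EGF, and from lines derived from it. CT is the parental line, cultured without BMP2 or IL6 and recorded as not transformed. MC26 descended from unsorted MCF10A cells kept under BMP2 and IL6, and is recorded as transformed. M1B26 descended from the BMPR1B-positive fraction of MCF10A (BMPR1B is a receptor for BMP2), transformed under the same pair of factors and expanded from 3 soft-agar clones. The 3 libraries of each line came from independent cultures of that line, so the spread below is among cultures and not among separately derived lines. The line, the cytokines, the time in culture and, in M1B26, the sort and the clonal selection cannot be told apart. The labels and the methods of the study state different cytokine concentrations, and none is given here.

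Desmosomes hold neighbouring epithelial cells together. The desmosomal cadherins (desmogleins and desmocollins) span the membrane, the armadillo proteins plakoglobin and the plakophilins bind their tails, and desmoplakin ties the complex to keratin filaments. In the outer layers of epidermis, keratinocytes replace their membrane by a cornified envelope: involucrin, envoplakin and periplakin form its first scaffold, transglutaminases crosslink it, small proline-rich proteins reinforce it, and kallikreins later cut the corneodesmosomes so that cells can shed. Mammary epithelium has desmosomes but does not normally cornify.

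Values are given as CPM, read counts scaled to a common library size with TMM factors, in the order of replicates 1, 2 and 3 of a line. A gene was called changed where the edgeR quasi-likelihood test gave a Benjamini-Hochberg adjusted p under 0.05 over 15717 genes. Differences are log2 fold changes with their standard error. Total counts per library ran from 21425118 to 80076597, and 3 counts per library were taken as the floor of detection. Log2 CPM correlated over genes at 0.985 to 0.998 within a line and at 0.927 to 0.973 between lines. Both derived lines were compared with the same CT libraries, so their comparisons are not independent. In RNA from whole cultures, fewer cells of a type and less RNA per cell cannot be told apart.

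The label was checked against markers. Basal mammary markers summed to 8284 to 10057 CPM in CT, 11627 to 15524 CPM in MC26 and 9449 to 9962 CPM in M1B26. KRT5 was the largest part in each line, with means of 6583, 6261 and 4922 CPM. Of these 8 genes, 5 were called higher and 0 lower in MC26 against CT. In M1B26, 4 were called higher and 2 lower, the latter KRT5 and EGFR. Of all tested genes, 38.7% changed in MC26 and 48.9% in M1B26. Of the markers of other cell types, COL1A2 and COL3A1 of fibroblasts, PTPRC and CD3E of leukocytes, CDH5 and VWF of endothelium and MLANA, TYR and DCT of melanocytes were at or under the floor in all 9 libraries, while others of the same lists were expressed. Fibroblast markers summed to 37.4 to 37.8 CPM in CT, 17.1 to 56.8 CPM in MC26 and 28.5 to 39.9 CPM in M1B26, ranges that overlapped, but single genes moved apart. LUM had means of 0.108, 0.128 and 5.11 CPM in CT, MC26 and M1B26. Its CT libraries were all under the 0.229 CPM asked by the filter, so no test of it is given. COL1A1 had 7.73, 9.73 and 15.4 CPM (edgeR adjusted p = 0.000163 for M1B26 against CT), and DCN had 29.02, 22.9 and 14.0 CPM, with no call. Leukocyte markers summed to 14.9 to 19.95, 34.5 to 36.8 and 56.9 to 78.9 CPM in the same order, nearly all of it CD14 and CD68, and both were called higher in M1B26 than in CT. Endothelial markers summed to 8.15 to 8.25, 2.19 to 3.76 and 3.65 to 6.59 CPM, and melanocyte markers to 6.499 to 7.12, 2.78 to 3.50 and 2.48 to 3.03 CPM. PECAM1 (means of 5.04, 0.268 and 0.897 CPM) and MITF (6.35, 2.64 and 2.12 CPM) were called lower in both derived lines, and TEK higher. Luminal markers summed to 1045 to 1252 CPM in CT, 764 to 939 CPM in MC26 and 968 to 1036 CPM in M1B26, with PGR and ELF5 at the floor. Single luminal genes differed from the sum. EPCAM had means of 70.4, 14.8 and 72.1 CPM in CT, MC26 and M1B26 and was called lower in MC26. MUC1 had 177, 179 and 55.3 CPM and was called lower in M1B26. ESR1 had means of 0.0964, 0.208 and 0.409 CPM in CT, MC26 and M1B26. Its CT libraries were all under the CPM asked by the filter, so no test of it against CT is given. Suprabasal keratins summed to 1765 to 2160 CPM in CT, 5124 to 7703 CPM in MC26 and 2831 to 3225 CPM in M1B26. KRT6A made up nearly all of each sum, and KRT2 had no count. KRT6A and KRT6B were called higher in both derived lines. Against CT, KRT10 was called lower in MC26 (-0.41, edgeR adjusted p = 0.00923) and higher in M1B26 (0.29, edgeR adjusted p = 0.0366). KRT16 was called lower in M1B26 (-1.77, edgeR adjusted p = 0.00263) but not in MC26. KRT13 had means of 1.16 CPM in CT and 0.0554 CPM in M1B26, and no count in MC26. It passed the filter through CT alone, so no test of it is given. The part of these markers in the results below was not tested. Against the epidermal part of the name, 16 members were below the filter on low counts, among them all 7 kallikreins and the desmosomal genes DSG1, DSC1 and PKP1.

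**Figure D1:**
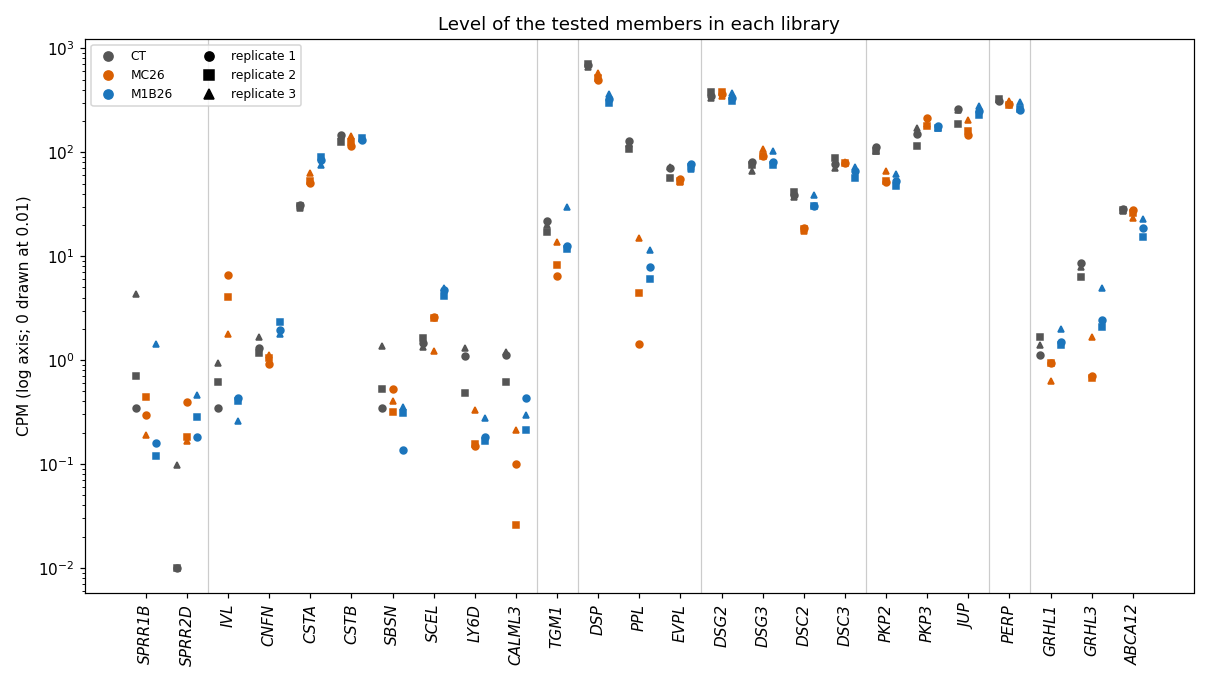
CPM (log axis) of the 25 tested members in each of the 9 libraries, with colours for the lines, shapes for the replicates and vertical lines between roles. DSP lies at the top, from 297 to 706 CPM, PPL drops from over 100 CPM in CT to under 15 CPM in both derived lines, and the small proline-rich genes lie mostly near 1 CPM or lower, with CT replicate 3 on top at 4.34 CPM for SPRR1B.

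In MC26 against CT, 16 of the 25 tested members changed, 5 higher and 11 lower. Of all tested genes 38.7% changed, 18.8% higher and 19.9% lower. The members' median difference was -0.37 on the log2 scale against 0.00 over all tested genes, 8 of the 16 changed at least 2-fold, and the CPM ranges of the lines did not overlap for 16 members, as they did not for 50.3% of all tested genes. In M1B26 against CT, 14 members changed, 4 higher and 10 lower, where 48.9% of all genes changed, 25.2% higher and 23.7% lower. The median was -0.22, 9 members changed at least 2-fold, and 12 members did not overlap (59.0% of all genes). Between the derived lines, 12 members changed, 8 higher and 4 lower in M1B26, where 39.5% of all genes changed, 21.2% higher and 18.4% lower. The median was 0.29, 3 members changed at least 2-fold, and 14 did not overlap (53.5% of all genes). With total counts alone as the scaling, the higher and lower members numbered 4 and 11 in MC26 and 3 and 11 in M1B26 against CT, while the share of higher calls over all genes went from 48.5% to 35.8% and from 51.5% to 39.6%. SPRR2D and CALML3 reached the 0.229 CPM asked by the filter in only one line of some pairs. Without such members 14 of 23 changed in MC26 (4 higher, 10 lower), 13 of 24 in M1B26 (3 higher, 10 lower) and 12 of 24 between the derived lines. CT replicate 3 held most counts of the members below the filter, and without it 12, 14 and 12 members changed in these 3 comparisons, of 26 tested. Leaving out each library in turn gave 11 to 17, 10 to 16 and 10 to 14.

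**Figure D2:**
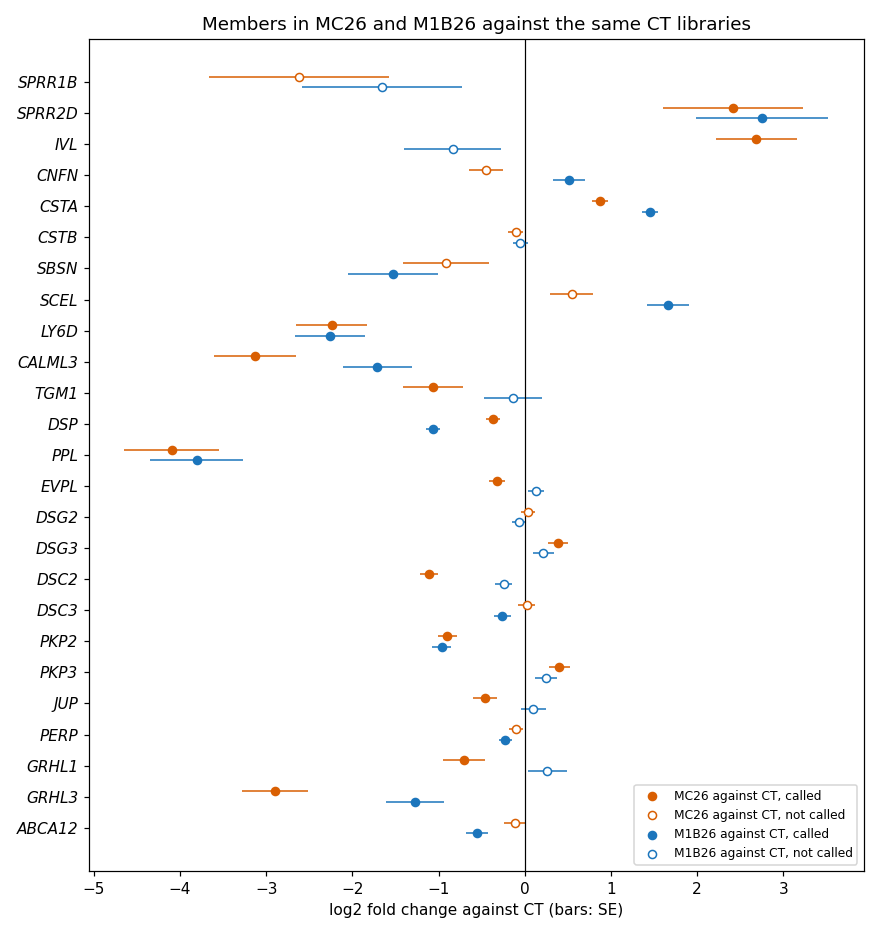
Log2 fold change of each tested member in MC26 (orange) and M1B26 (blue) against the same 3 CT libraries, with SE bars, and filled points passed the edgeR test. PPL lies farthest left in both lines, and LY6D and GRHL3 are left of -1 in both. IVL is right of 2 in MC26 and left of 0 in M1B26. The filled points of SPRR2D in both lines and of CALML3 in MC26 are not read as tests. These genes reached the CPM asked by the filter in a single line of the pair.

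Among the plakins, which link junctions and the envelope scaffold to keratin filaments, periplakin fell most. PPL stood at 129, 108 and 121 CPM in CT, 1.44, 4.42 and 14.9 in MC26 and 7.93, 6.08 and 11.4 in M1B26. Every library of the derived lines lay below every CT library. The level was 17.1-fold lower in MC26 (-4.10 ± 0.55, edgeR adjusted p = 0.000223) and 14.0-fold lower in M1B26 (-3.81 ± 0.54, edgeR adjusted p = 0.000196). MC26 replicates spread 10.3-fold for PPL, from 1.44 to 14.9 CPM, and no difference between the derived lines was called (0.29 ± 0.54, edgeR adjusted p = 0.703). Without MC26 replicate 3 that difference was 1.55 with an edgeR adjusted p of 0.00682, higher in M1B26. PPL lies on the minus strand at chr16:4882507-4960741 (GRCh38), 106 bases from UBN1, whose log2 differences were -0.02 in MC26 and -0.36 in M1B26. NAGPA, the tested neighbour on the other side, differed by 0.07 and 0.04.

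Desmoplakin, the plakin of every desmosome, fell less and in steps. DSP stood at 688, 706 and 666 CPM in CT, 499, 522 and 574 in MC26 and 326, 297 and 363 in M1B26. The 3 lines did not overlap, with M1B26 lowest. DSP fell in MC26 (-0.37 ± 0.08, edgeR adjusted p = 0.00501), further in M1B26 (-1.06 ± 0.08, edgeR adjusted p = 3.34e-06), and was lower in M1B26 than in MC26 (-0.69 ± 0.08, edgeR adjusted p = 0.000120). Envoplakin, the usual partner of periplakin in the envelope scaffold, stood at 69.9, 56.8 and 72.9 CPM in CT, 55.0, 53.2 and 51.6 in MC26 and 77.0, 72.1 and 69.6 in M1B26. EVPL was lower in MC26 (-0.32 ± 0.09, edgeR adjusted p = 0.0152), a call lost without CT replicate 1 or 3 or MC26 replicate 2 (edgeR adjusted p 0.0533 to 0.0695, log2 -0.32 to -0.25). It was not called in M1B26 against CT (0.13 ± 0.09, edgeR adjusted p = 0.259), and M1B26 was above MC26 (0.45 ± 0.09, edgeR adjusted p = 0.00263). EVPL lies on chromosome 17, where the median of 842 other tested genes was 0.48 higher in M1B26 than in MC26, and the EVPL difference less that median was -0.025. Against CT the median was also 0.48 higher in M1B26. EVPL less the median of its comparison with CT was -0.35 in M1B26 and -0.33 in MC26. The part of the chromosome in these differences was not tested.

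The tested desmosomal cadherins lie together on chromosome 18, from DSC3 at 30989365 to DSG2 at 31549008 (GRCh38), with DSG1 and DSC1 between them. These neighbours did not move as a block. DSG2, the widely expressed desmoglein, stood at 347, 384 and 336 CPM in CT, 365, 382 and 351 in MC26 and 335, 312 and 375 in M1B26. The lines overlapped and no difference was called, with log2 values of 0.04 ± 0.08, -0.06 ± 0.08 and -0.10 ± 0.08 for MC26 and M1B26 against CT and for M1B26 against MC26. DSG3, a desmoglein of basal and spinous keratinocytes, stood at 80.1, 76.0 and 66.1 CPM in CT, 91.8, 92.6 and 106 in MC26 and 80.04, 75.2 and 102 in M1B26. It rose in MC26 (0.39 ± 0.12, edgeR adjusted p = 0.0230), a call lost without CT replicate 3 or MC26 replicate 3 (edgeR adjusted p 0.0703 to 0.0740, log2 0.32) and with total counts alone. In M1B26 it did not pass (0.22 ± 0.12, edgeR adjusted p = 0.154), nor between the derived lines (-0.17 ± 0.12, edgeR adjusted p = 0.264), though without M1B26 replicate 3 the latter was -0.32 (edgeR adjusted p = 0.0375).

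DSC2, the widely expressed desmocollin, was the cadherin that changed most. It stood at 39.1, 41.6 and 37.3 CPM in CT, 18.7, 18.3 and 17.3 in MC26 and 30.1, 30.4 and 38.9 in M1B26. The MC26 libraries lay below all others, at 2.16-fold under CT (-1.11 ± 0.10, edgeR adjusted p = 1.49e-05). M1B26 overlapped with CT (-0.24 ± 0.10, edgeR adjusted p = 0.0634) and was 1.83-fold above MC26 (0.87 ± 0.10, edgeR adjusted p = 0.000105). Without M1B26 replicate 3, M1B26 was also below CT (-0.37, edgeR adjusted p = 0.00418), as it was with total counts alone. DSC3, the desmocollin of basal keratinocytes, stood at 77.0, 87.3 and 70.2 CPM in CT, 79.4, 78.1 and 80.1 in MC26 and 66.3, 57.1 and 71.8 in M1B26. DSC3 was not called in MC26 (0.02 ± 0.10, edgeR adjusted p = 0.878) and was lower in M1B26 than in CT (-0.26 ± 0.10, edgeR adjusted p = 0.0425) and MC26 (-0.28 ± 0.10, edgeR adjusted p = 0.0369).

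Both DSC3 calls were weak. That against CT was lost when any single library other than CT replicate 3 or M1B26 replicate 3 was left out (edgeR adjusted p 0.0510 to 0.173, log2 -0.27 to -0.17), and that against MC26 when any one MC26 replicate, or M1B26 replicate 1 or 2, was left out (edgeR adjusted p 0.0729 to 0.140, log2 -0.29 to -0.20). DSG1 and DSC1, the cadherins of upper epidermal layers, were near 0. DSG1 had 1, 0 and 9 counts in CT and no count in the derived lines. DSC1 had 1 count, in M1B26 replicate 3.

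Scaled by exonic length, which allows genes to be compared within a library, DSG2 made up a mean share of 73.8 ± 1.8% (SD, n = 3 for each line) of desmoglein CPM per kb in CT. Its share was 68.9 ± 2.6% in MC26 and 70.1 ± 1.6% in M1B26. DSC2 made up 23.7 ± 0.99% of the desmocollins in CT, 12.4 ± 0.52% in MC26 and 23.9 ± 1.7% in M1B26. The remainder was almost all DSG3 and DSC3. PKP2 made up 21.5 ± 3.4% of the plakophilins in CT, 9.88 ± 1.6% in MC26 and 10.4 ± 1.3% in M1B26. Where the shares of lines did not overlap, the exact 2-sided permutation test gave p = 0.1, the smallest that 3 libraries against 3 allow. For DSC2 in M1B26 against CT the same exact test gave p = 0.8. Exonic lengths came from GENCODE v44 and took no account of which isoforms a line used.

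**Figure D3:**
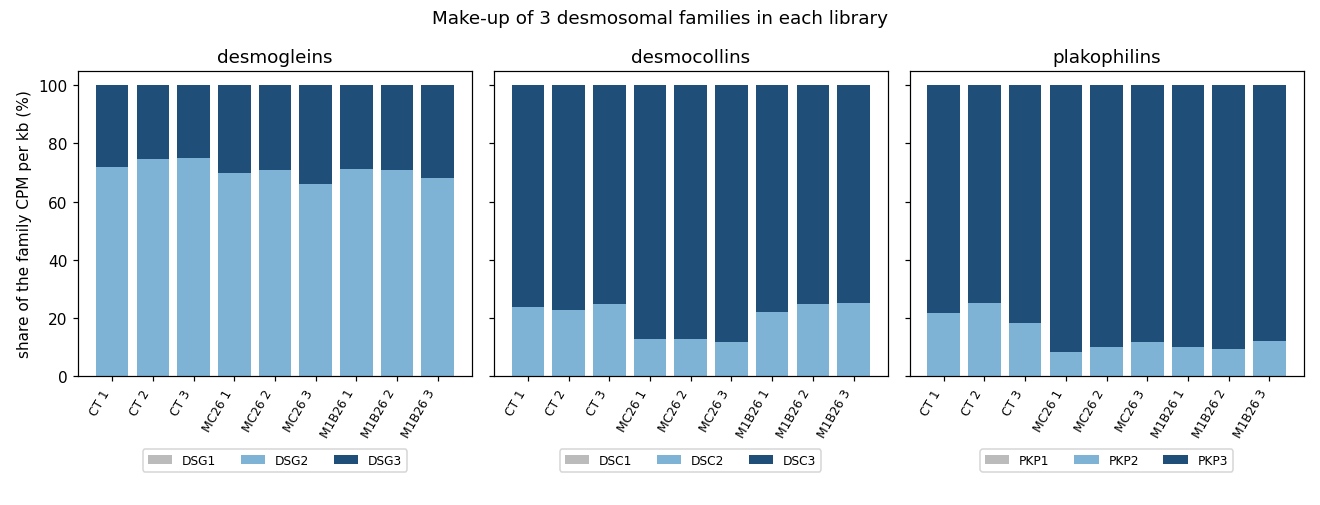
Share of each desmoglein, desmocollin and plakophilin in the summed CPM per kb of its family, in %, for each of the 9 libraries. The DSC2 share is near 24% in CT and M1B26 and near 12% in MC26, and the PKP2 share is near 10% in all 6 libraries of the derived lines.

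Of the armadillo proteins, which sit between cadherins and desmoplakin, PKP2 fell in both lines. It stood at 112, 103 and 103 CPM in CT, 52.2, 52.6 and 65.6 in MC26 and 52.9, 47.8 and 62.0 in M1B26. All derived libraries lay below all CT libraries (-0.90 ± 0.11, edgeR adjusted p = 0.000114 in MC26 and -0.96 ± 0.11, edgeR adjusted p = 4.51e-05 in M1B26), and the lines themselves overlapped (-0.07 ± 0.11, edgeR adjusted p = 0.657). PKP3, the plakophilin most abundant per kb here, stood at 149.6, 114 and 172 CPM in CT, 212, 178 and 187 in MC26 and 178, 171 and 170.1 in M1B26. PKP3 rose in MC26 (0.40 ± 0.13, edgeR adjusted p = 0.0262), a call lost without CT replicate 1 or MC26 replicate 1 (edgeR adjusted p 0.0576 to 0.0981, log2 0.33 to 0.43) and when only these 6 libraries were fitted. M1B26 was not called against CT (0.25 ± 0.13, edgeR adjusted p = 0.123) but passed without CT replicate 3 (0.39, edgeR adjusted p = 0.0208), and its difference from MC26 was -0.15 ± 0.12, edgeR adjusted p = 0.358. PKP1, the plakophilin of suprabasal layers, had 9 counts or fewer in every library.

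Plakoglobin, shared by desmosomes and adherens junctions, stood at 263, 188 and 254 CPM in CT, 148, 161 and 204 in MC26 and 249.7, 228 and 278 in M1B26 for JUP. CT and MC26 overlapped, through CT replicate 2. JUP was nonetheless called lower in MC26 (-0.46 ± 0.14, edgeR adjusted p = 0.0258), a call lost without CT replicate 1 or 3 or MC26 replicate 1 or 2 (edgeR adjusted p 0.0813 to 0.107, log2 -0.41 to -0.36). It was not called in M1B26 against CT (0.10 ± 0.14, edgeR adjusted p = 0.594), and M1B26 was above MC26 (0.56 ± 0.14, edgeR adjusted p = 0.0103). JUP, like EVPL, lies on chromosome 17, and its difference between the derived lines less the chromosome median was 0.083. JUP less the median of its comparison with CT was -0.38 in M1B26 and -0.46 in MC26, and the part of the chromosome was not tested. PERP, a tetraspan desmosomal membrane protein and the member with the most CPM per kb in CT (76.0, before DSP at 50.4 and JUP at 47.6), stood at 312, 329 and 317 CPM in CT, 294, 285 and 312 in MC26 and 255, 259.6 and 305 in M1B26. It was slightly lower in M1B26 than in CT (-0.22 ± 0.08, edgeR adjusted p = 0.0326), a call lost when any one CT replicate, or M1B26 replicate 1 or 2, was left out (edgeR adjusted p 0.0580 to 0.139, log2 -0.25 to -0.17). Neither MC26 against CT (-0.10 ± 0.08, edgeR adjusted p = 0.323) nor M1B26 against MC26 (-0.12 ± 0.08, edgeR adjusted p = 0.233) passed, though the latter did without M1B26 replicate 3 (-0.21, edgeR adjusted p = 0.0468).

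The envelope scaffold genes did not move in one direction. Involucrin, the classic early envelope precursor, rose in MC26. IVL stood at 0.343, 0.611 and 0.939 CPM in CT, 6.64, 4.05 and 1.76 in MC26 and 0.428, 0.402 and 0.258 in M1B26. The MC26 libraries were all above the others but spread from 1.76 to 6.64 CPM. IVL was 6.44-fold above CT (2.69 ± 0.47, edgeR adjusted p = 0.00121), not called in M1B26 (-0.84 ± 0.56, edgeR adjusted p = 0.243), and 11.5-fold lower in M1B26 than in MC26 (-3.52 ± 0.51, edgeR adjusted p = 0.000421). Cystatin A, a cysteine protease inhibitor crosslinked into the envelope, rose in both lines. CSTA stood at 31.1, 30.1 and 29.4 CPM in CT, 50.5, 53.1 and 62.5 in MC26 and 84.6, 89.4 and 74.6 in M1B26. The 3 lines did not overlap, and CSTA was higher in MC26 (0.88 ± 0.09, edgeR adjusted p = 4.24e-05), higher still in M1B26 (1.46 ± 0.09, edgeR adjusted p = 9.78e-07), and M1B26 was above MC26 (0.58 ± 0.09, edgeR adjusted p = 0.000697). Cystatin B, a related inhibitor found in most cells, stood at 147, 125 and 142 CPM in CT, 116, 126 and 143 in MC26 and 130.0, 137 and 133 in M1B26 for CSTB, and none of its log2 values passed (-0.11 ± 0.09, -0.05 ± 0.09 and 0.05 ± 0.09 in the order above).

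Sciellin, a precursor bound to the envelope, stood at 1.47, 1.62 and 1.34 CPM in CT, 2.61, 2.56 and 1.22 in MC26 and 4.78, 4.12 and 4.93 in M1B26 for SCEL. It rose 3.16-fold in M1B26 against CT (1.66 ± 0.24, edgeR adjusted p = 0.000254) and 2.17-fold against MC26 (1.12 ± 0.24, edgeR adjusted p = 0.00398). MC26 overlapped with CT through its replicate 3 (0.54 ± 0.25, edgeR adjusted p = 0.113), and without that library MC26 was called higher (0.83, edgeR adjusted p = 0.00232). Cornifelin, another envelope component, stood at 1.30, 1.18 and 1.67 CPM in CT, 0.920, 1.05 and 1.13 in MC26 and 1.94, 2.32 and 1.79 in M1B26 for CNFN. M1B26 was above MC26 (0.96 ± 0.20, edgeR adjusted p = 0.00300). It was also called above CT (0.51 ± 0.19, edgeR adjusted p = 0.0409), but not without CT replicate 1 or 2, MC26 replicate 2 or M1B26 replicate 1 or 2 (edgeR adjusted p 0.0551 to 0.141, log2 0.41 to 0.54), nor with DESeq2. MC26 against CT was -0.45 ± 0.20, edgeR adjusted p = 0.0966.

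A further 3 genes of differentiating keratinocytes had under 1.5 CPM in all libraries. LY6D, a surface protein of keratinocytes, stood at 1.09, 0.480 and 1.32 CPM in CT, 0.149, 0.157 and 0.329 in MC26 and 0.180, 0.166 and 0.277 in M1B26. It fell in MC26 (-2.24 ± 0.41, edgeR adjusted p = 0.00161) and M1B26 (-2.26 ± 0.40, edgeR adjusted p = 0.000901) and did not pass between them (-0.02 ± 0.50, edgeR adjusted p = 0.981). These tests carry a limit, as LY6D passed the filter mainly through CT. All 3 CT libraries reached the CPM asked, but only 1 library of each derived line. CALML3, a calmodulin-like protein of epithelia, stood at 1.13, 0.611 and 1.21 CPM in CT, 0.0994, 0.0261 and 0.212 in MC26 and 0.428, 0.213 and 0.295 in M1B26. Its MC26 libraries were all under the CPM asked by the filter, so no test of it against MC26 is given. They lay below all libraries of the other lines. CALML3 fell in M1B26 against CT (-1.71 ± 0.40, edgeR adjusted p = 0.00456), with the limit that 3 CT but only 2 M1B26 libraries reached that CPM. CALML3-AS1, which overlaps CALML3, had means of 0.367, 0.0719 and 0.114 CPM in CT, MC26 and M1B26. The means of both derived lines were under the CPM asked by the filter, so no test of it is given. Without known strandedness the reads of this pair cannot be told apart. Suprabasin, SBSN, stood at 0.343, 0.524 and 1.35 CPM in CT, 0.522, 0.314 and 0.400 in MC26 and 0.135, 0.308 and 0.351 in M1B26. It was called lower in M1B26 (-1.53 ± 0.52, edgeR adjusted p = 0.0306) although the lines overlapped, and not without CT replicate 3 or M1B26 replicate 1 or 2 (edgeR adjusted p 0.0667 to 0.295, log2 -1.63 to -0.61). Its other log2 values were -0.91 ± 0.50 in MC26 against CT and -0.62 ± 0.57 between the derived lines, neither called.

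**Figure D4:**
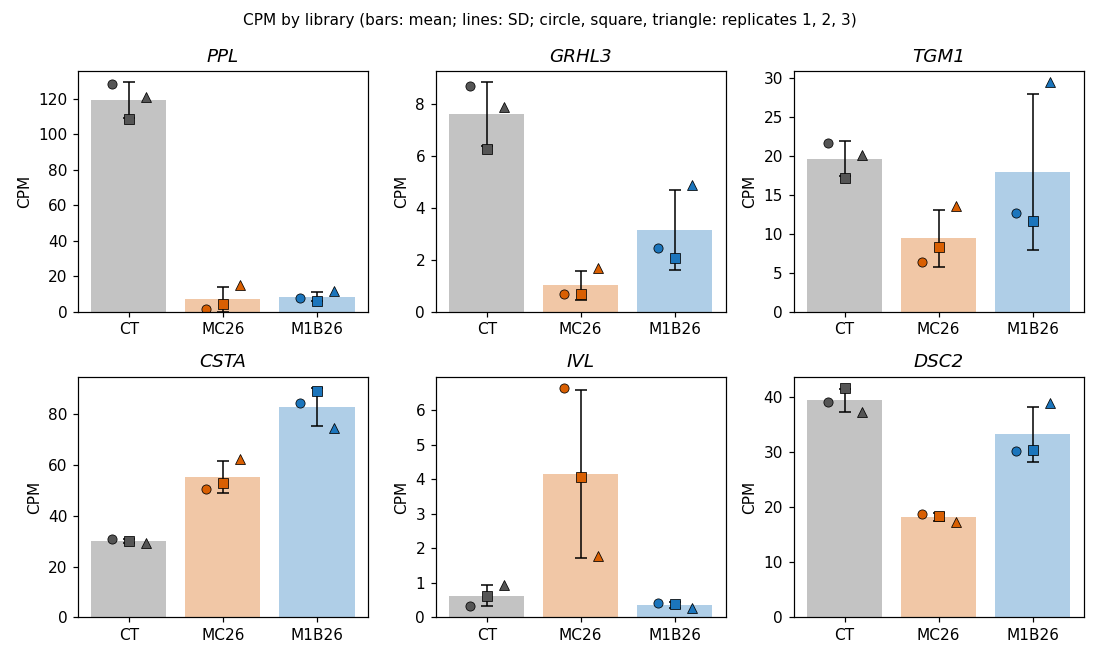
CPM of PPL, GRHL3, TGM1, CSTA, IVL and DSC2 by line, with bars at the mean of 3 libraries, lines for the SD and a symbol for each replicate. PPL and GRHL3 are below CT in all 6 derived libraries, CSTA is above CT in all 6, IVL is high in MC26 alone, and DSC2 is lowest in MC26.

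Transglutaminase 1, the membrane-bound enzyme that crosslinks the envelope, stood at 21.7, 17.2 and 20.1 CPM in CT, 6.41, 8.26 and 13.6 in MC26 and 12.7, 11.6 and 29.5 in M1B26 for TGM1. MC26 lay below CT in all 3 libraries (-1.07 ± 0.35, edgeR adjusted p = 0.0309), a call lost without CT replicate 1 or 3 or MC26 replicate 1 or 2 (edgeR adjusted p 0.0637 to 0.109, log2 -1.05 to -0.85). M1B26 replicate 3 was above every CT library while replicates 1 and 2 were below all of them. M1B26 was not called against CT (-0.13 ± 0.33, edgeR adjusted p = 0.766), but was lower without its replicate 3 (-0.70, edgeR adjusted p = 0.0436). Against MC26 it was 0.93 ± 0.35, edgeR adjusted p = 0.0520, and passed without MC26 replicate 3 or without M1B26 replicate 1 or 2 (log2 1.13 to 1.30, edgeR adjusted p 0.0150 to 0.0400). TGM3, the soluble envelope transglutaminase, had no count in any library.

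Both grainyhead factors were lowest in MC26. GRHL3, a grainyhead transcription factor of epidermal barrier formation, stood at 8.67, 6.24 and 7.87 CPM in CT, 0.696, 0.680 and 1.67 in MC26 and 2.43, 2.08 and 4.89 in M1B26. The 3 lines did not overlap, with MC26 lowest. GRHL3 was 7.46-fold lower in MC26 (-2.90 ± 0.38, edgeR adjusted p = 0.000188) and 2.42-fold lower in M1B26 (-1.27 ± 0.34, edgeR adjusted p = 0.00913), and M1B26 was above MC26 (1.63 ± 0.39, edgeR adjusted p = 0.00714). GRHL1, a related factor known to act on desmosomal genes, stood at 1.13, 1.66 and 1.40 CPM in CT, 0.945, 0.941 and 0.635 in MC26 and 1.49, 1.40 and 2.01 in M1B26. It was higher in M1B26 than in MC26 (0.97 ± 0.24, edgeR adjusted p = 0.00862) and not called in M1B26 against CT (0.26 ± 0.23, edgeR adjusted p = 0.365). GRHL1 was called lower in MC26 (-0.71 ± 0.24, edgeR adjusted p = 0.0388), but not when any one MC26 replicate, CT replicate 2 or 3, or M1B26 replicate 1 was left out (edgeR adjusted p 0.0509 to 0.120, log2 -0.79 to -0.53). ABCA12, the lipid transporter of lamellar granules, stood at 28.6, 27.6 and 27.4 CPM in CT, 27.9, 26.1 and 23.2 in MC26 and 18.6, 15.3 and 22.9 in M1B26. It fell in M1B26 against CT (-0.56 ± 0.13, edgeR adjusted p = 0.00413) and against MC26 (-0.44 ± 0.13, edgeR adjusted p = 0.0184), the latter not without MC26 or M1B26 replicate 1 or 2 (edgeR adjusted p 0.0562 to 0.0642, log2 -0.43 to -0.31), and MC26 against CT was -0.12 ± 0.13, edgeR adjusted p = 0.504.

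Small proline-rich (SPRR) genes, the late reinforcing proteins of the envelope, were near the floor, and reads of these near-identical paralogs may have been split, so single values are uncertain. SPRR1B stood at 0.343, 0.699 and 4.34 CPM in CT, 0.298, 0.444 and 0.188 in MC26 and 0.158, 0.118 and 1.44 in M1B26, which was 24, 16 and 356 counts in CT. CT replicate 3 and M1B26 replicate 3 stood far above the others of their line. No difference was called, at -2.62 ± 1.04, edgeR adjusted p = 0.0686 for MC26 and -1.66 ± 0.93, edgeR adjusted p = 0.161 for M1B26 against CT, and 0.96 ± 1.14, edgeR adjusted p = 0.530 between them. MC26 was called lower without CT replicate 1 or M1B26 replicate 3 (log2 -3.12 to -2.62, edgeR adjusted p 0.0310 to 0.0367), and M1B26 without its replicate 3 (-3.76, edgeR adjusted p = 0.0228). Without CT replicate 3, M1B26 was 0.32 above CT (edgeR adjusted p = 0.796). SPRR2D had 0, 0 and 8 counts in CT, 16, 7 and 7 in MC26 and 8, 12 and 25 in M1B26. It passed the filter through libraries of the derived lines alone. Its differences from CT are therefore given by these counts alone, with no test, and 2 of the 3 CT libraries had none.

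The 16 members below the filter were SPRR1A, SPRR2A, SPRR3, CALML5, TGM3, DSG1, DSC1, PKP1, CDSN and the 7 kallikreins, and they get no test. Their summed counts were 25, 18 and 273 in CT, 5, 8 and 10 in MC26 and 17, 12 and 43 in M1B26. CT replicate 3 therefore held most of them, with 3.33 summed CPM against 0.357 and 0.786 in CT replicates 1 and 2. In that library 11 of the 16 had more than 3 counts, against 1 of 16 in each of the other CT libraries. Of the 13 with any count, 8 were highest there. SPRR3 had 2, 2 and 105 counts in CT, 0, 1 and 0 in MC26 and 0, 0 and 6 in M1B26. SPRR1A had 1, 3 and 61 counts in CT, 0, 0 and 0 in MC26 and 0, 0 and 1 in M1B26. SPRR2A, by contrast, had 0, 2 and 15 counts in CT, 2, 3 and 1 in MC26 and 5, 5 and 16 in M1B26.

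The kallikreins lie in 1 row on chromosome 19, from 50943303 to 51028039 (GRCh38). KLK7, the chymotrypsin-like enzyme of epidermal shedding, had 0, 2 and 23 counts in CT, 0, 0 and 0 in MC26 and 0, 0 and 0 in M1B26. KLK10 had 1, 0 and 22 counts in CT, 0, 0 and 0 in MC26 and 0, 0 and 4 in M1B26. KLK5, the trypsin-like activator of other kallikreins, reached 5 counts at most, in CT replicate 3. KLK8 had 1, 1 and 5 counts in CT, 0, 0 and 1 in MC26 and 6, 1 and 9 in M1B26, highest in M1B26 replicate 3. KLK6 had 2 counts or fewer everywhere, and KLK9 and KLK11 had none. A count of 0 here allows up to 3 counts per library, which is 0.0366 to 0.131 CPM. Corneodesmosin (CDSN), the adhesive protein that kallikreins cut, had 16, 6 and 9 counts in CT, 1, 2 and 5 in MC26 and 3, 4 and 3 in M1B26. CALML5, a calmodulin-like protein of late differentiation, had 1, 1 and 9 counts in CT, 0, 0 and 0 in MC26 and 0, 0 and 0 in M1B26. KRT13, a keratin of non-cornifying stratified epithelia and no member, was likewise highest in CT replicate 3 within CT (0.786, 0.873 and 1.82 CPM) and had no count in MC26, at least 15.5-fold lower by group mean against a floor of 3 counts per library.

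**Figure D5:**
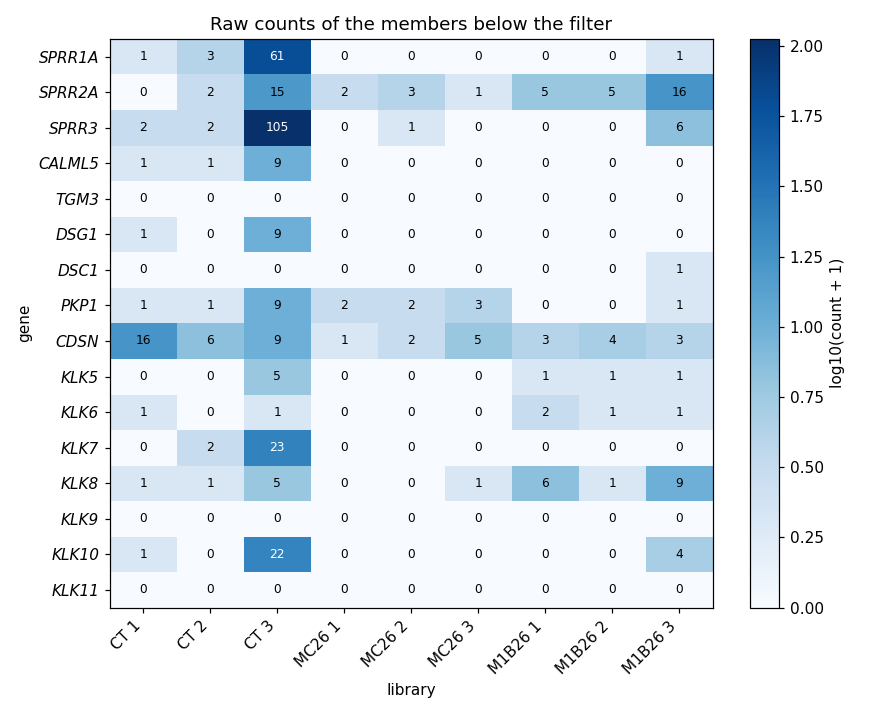
Raw counts of the 16 members below the filter (rows) in the 9 libraries (columns), printed in each cell and coloured by log10(count + 1). CT replicate 3 is the darkest column, with 105 counts of SPRR3 and 61 of SPRR1A, and TGM3, KLK9 and KLK11 are 0 throughout.

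Tested members were also often highest in replicate 3 of the derived lines. Within M1B26, 18 of the 25 were highest in replicate 3, where 35.6% of all tested genes were. Within MC26, 14 of the 25 were highest in replicate 3, against 37.1% of all tested genes, and 9 were lowest there. Within CT, 9 of the 25 were highest in replicate 3, near the 33.6% of all tested genes. The labels give no batch, and what set these libraries apart was not tested.

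Promoter sequence was examined because several members of the epidermal differentiation complex lie side by side on chromosome 1 and yet had unlike values. RefSeq windows on GRCh38.p14, 250 bases before to 50 after a start, matched 31 of the 41 members and gave 39 windows. AP-1 letters (TGANTCA, either strand), the binding sequence of Jun and Fos dimers, stood in 8 of these 39 windows (20.5%) and in 7.71% of all 35116 windows. The 8 belonged to SPRR1A, SPRR1B, SPRR2A, SPRR3, IVL, SBSN, SCEL and PERP. The stretches around them, picked by these letters alone, are printed with the AP-1 letters in capitals.
SPRR1A, chr1:152983963-152983989, plus strand: gatggtagtgTGAGTCAtgtgtgacag
SPRR1B, chr1:153031052-153031078, plus strand: tcacaaaagtTGAGTCAacaggtgggt
SPRR1B, chr1:153031082-153031108, plus strand: ggaagaggggTGAATCAcatctgacag
SPRR2A, chr1:153057693-153057719, minus strand: atggcttctgTGAGTCAggagagctta
SPRR3, chr1:153001569-153001595, plus strand: gggtggacagTGAGTCAggcccaggtg
IVL, chr1:152908413-152908439, plus strand: atgcctgtggTGAGTCAggaaggggtt
SBSN, chr19:35528468-35528494, minus strand: tctccatccaTGACTCAccctctcttc
SBSN, chr19:35528366-35528392, minus strand: caggggtaatTGAGTCAtgaggggtgg
SCEL, chr13:77535647-77535673, plus strand: cctccctgagTGACTCAgccgctgagc
PERP, chr6:138107504-138107530, minus strand: gggcgcgctcTGAGTCAccggaatcta
Among these, the distance of the first letter before the start ran from 49 bases in SCEL to 197 in SPRR2A, and in IVL it was 123. Members with these letters included genes that rose (IVL in MC26, SCEL in M1B26), fell (SBSN, PERP in M1B26) or were near the floor (SPRR3).

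STAT letters (TTCNNNGAA), of the kind bound by factors downstream of IL6, were in 7.66% of all windows and in 1 of the 39. That was the second of 2 windows of DSC2, 63 bases before that start, shown with the STAT letters in capitals.
DSC2, chr18:31101305-31101333, minus strand: ctgctcgcctTTCTGGGAAttgtttactc
The grainyhead letters AACCNGTT were in 1.73% of all windows and in none of the 39. The 10 members without a window, not searched here, included PPL, EVPL, TGM1, CSTA, PKP2, PKP3 and LY6D. The letters GGCGCC, found in some BMP-responsive SMAD sites, were in 19.2% of all windows and in 5 of the 39, those of DSP, GRHL1, JUP, PERP and PKP1. No AP-1 or STAT match printed here overlapped a match of another motif searched. A match is a description of sequence and not of binding.

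Genes of the same programmes were taken from lists of 123 symbols, of which 121 were in the table and 55 were tested. Of these, 29 changed in MC26 (13 higher, 16 lower), 31 in M1B26 (16 higher, 15 lower) and 26 between the derived lines (16 higher and 10 lower in M1B26, and 17 in all without MC26 replicate 2). Of all tested genes 38.7%, 48.9% and 39.5% changed in the same order, the shares beside which the counts of each list stand. Leaving out genes that reached the CPM asked by the filter in only one line of the pair, 24 of 50, 27 of 50 and 23 of 51 changed. PADI3 and FA2H, described further on, were under that CPM in all MC26 libraries. Other genes of the epidermal differentiation complex were mostly below the filter, with 4 of 39 tested. One of them, the late envelope gene LCE3D, stood at 0.0143, 0.0873 and 0.122 CPM in CT, 1.67, 1.098 and 0.447 in MC26 and 0.383, 0.450 and 0.554 in M1B26. It passed the filter through the derived lines alone, so no test of it is given. Among 6 tested other desmosome-related genes, 2 rose in MC26, and in M1B26 1 rose and 2 fell. NECTIN1, a cell adhesion molecule of adherens junctions, stood at 114, 87.5 and 113 CPM in CT, 243, 228 and 267 in MC26 and 290.5, 268 and 336 in M1B26 (1.23 ± 0.12, edgeR adjusted p = 1.97e-05 in MC26 and 1.504 ± 0.12, edgeR adjusted p = 3.3e-06 in M1B26).

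Other transglutaminases, cystatins and envelope proteases were mostly lower in MC26. Of 11 tested, 8 fell and 0 rose in MC26, while in M1B26 against CT 2 rose and 5 fell, and 6 were higher and 0 lower in M1B26 than in MC26. The median was -0.79 in MC26 and -0.76 in M1B26 against CT, with 0.00 over all genes in both. Some of these genes reached the CPM asked by the filter in only one line of a pair, PADI1 and PADI3 among them. Without such genes, 6 of 9 fell and 0 rose in MC26, with a median of -0.45. In M1B26 against CT, 2 of 9 then rose and 4 fell, with a median of -0.75. Between the derived lines, 5 of 9 were then higher in M1B26. CST6, a cystatin that inhibits cathepsins in skin, stood at 1.86, 1.35 and 2.38 CPM in CT, 0.323, 0.314 and 0.0941 in MC26 and 0.428, 0.355 and 0.591 in M1B26 and fell in both lines (-2.97 ± 0.37, edgeR adjusted p = 0.000134 and -2.04 ± 0.33, edgeR adjusted p = 0.000503). PADI3, which deiminates arginines of envelope and hair proteins, stood at 0.629, 0.393 and 0.524 CPM in CT, 0.0746, 0.0784 and 0.0941 in MC26 and 0.428, 0.213 and 0.240 in M1B26. Its MC26 libraries lay below all others and under the CPM asked by the filter, so no test of it against MC26 is given. PADI1, an enzyme of the same family, stood at 0.329, 0.524 and 0.329 CPM in CT, 0.0994, 0.105 and 0.0235 in MC26 and 0.0901, 0.0473 and 0.0369 in M1B26 and passed the filter through CT alone, so no test of it is given. LGALS7B, a galectin of stratified epithelia with a near-identical copy, stood at 1.31, 0.961 and 1.84 CPM in CT, 0.348, 0.105 and 0.329 in MC26 and 0.969, 0.568 and 0.960 in M1B26 and was higher in M1B26 than in MC26 (1.66 ± 0.41, edgeR adjusted p = 0.00840).

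Of 17 other kallikreins and kallikrein inhibitors, 4 passed the filter. Without SPINK6, 0 of 3 changed in MC26, and 2 of 3 rose in M1B26 against CT. SPINK6, an inhibitor of epidermal kallikreins, stood at 0.0143, 0 and 0.0366 CPM in CT, 1.02, 0.418 and 0.165 in MC26 and 0.834, 0.639 and 0.240 in M1B26. It passed the filter through the derived lines alone, so no test of it is given. SPINK5, the inhibitor lost in Netherton syndrome, stood at 0.928, 0.786 and 0.817 CPM in CT, 0.597, 0.653 and 0.800 in MC26 and 1.40, 1.63 and 2.55 in M1B26, higher in M1B26 than in CT (1.13 ± 0.24, edgeR adjusted p = 0.00293) and MC26 (1.45 ± 0.25, edgeR adjusted p = 0.00133). Of 11 tested genes of skin barrier lipids, 5 changed in each derived line against CT, 2 higher and 3 lower in MC26 and 3 higher and 2 lower in M1B26, and 6 changed between them. Without FA2H, 4 of 10 changed in MC26 (2 higher, 2 lower) and 5 of 10 between the derived lines. FA2H, the fatty acid 2-hydroxylase, stood at 1.14, 0.655 and 1.13 CPM in CT, 0.0249, 0.105 and 0.165 in MC26 and 0.338, 0.166 and 0.498 in M1B26. Its MC26 libraries were under the CPM asked by the filter, so no test of it against MC26 is given. FA2H fell in M1B26 against CT (-1.57 ± 0.40, edgeR adjusted p = 0.00760), with the limit that 3 CT but only 2 M1B26 libraries reached that CPM. NIPAL4, which is mutated in an ichthyosis, stood at 2.96, 2.36 and 2.29 CPM in CT, 4.42, 3.66 and 5.53 in MC26 and 6.06, 5.68 and 10.4 in M1B26 and rose in M1B26 (1.54 ± 0.24, edgeR adjusted p = 0.000421).

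Of 19 tested transcription factors of epidermal differentiation, 12 changed in MC26 (7 higher, 5 lower), 12 in M1B26 (6 higher, 6 lower) and 9 between the derived lines. Without BARX2, 11 of 18 changed in M1B26 (5 higher, 6 lower) and 8 of 18 between the derived lines. ID1, a direct BMP target that blocks basic helix-loop-helix factors, stood at 98.8, 76.6 and 117 CPM in CT, 468, 449 and 383 in MC26 and 406, 435 and 422 in M1B26 (2.15 ± 0.13, edgeR adjusted p = 1.27e-06 and 2.11 ± 0.13, edgeR adjusted p = 9.09e-07 against CT). BARX2, a homeobox factor, stood at 0.0571, 0.0437 and 0.0244 CPM in CT, 0.149, 0.131 and 0.188 in MC26 and 0.518, 0.520 and 0.831 in M1B26. It passed the filter through M1B26 alone, so no test of it is given, and all M1B26 libraries lay above all others. PRDM1, a repressor found in granular keratinocytes, stood at 1.37, 1.09 and 1.39 CPM in CT, 2.31, 2.77 and 3.08 in MC26 and 4.19, 5.49 and 7.27 in M1B26 and was higher in M1B26 than in MC26 (1.06 ± 0.20, edgeR adjusted p = 0.00217). Among those that fell, CEBPA (6.46, 4.58 and 6.68 CPM in CT, 1.84, 2.25 and 3.48 in MC26 and 2.84, 3.005 and 3.29 in M1B26) and SOX9 (5.07, 4.02 and 4.74 CPM in CT, 2.24, 1.93 and 1.91 in MC26 and 3.90, 3.93 and 3.97 in M1B26) were lowest in MC26 (-1.24 ± 0.22, edgeR adjusted p = 0.00134 and -1.20 ± 0.14, edgeR adjusted p = 6.43e-05). GATA3, a factor of luminal mammary cells and epidermis, stood at 17.5, 14.8 and 18.4 CPM in CT, 11.1, 13.2 and 13.1 in MC26 and 7.26, 7.97 and 7.31 in M1B26 and fell in M1B26 (-1.18 ± 0.11, edgeR adjusted p = 9.65e-06).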

How the data were processed

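Poly-A RNA of 3 independent cultures each of MCF10A-CT, MC26 and M1B26 was sequenced in paired-end mode. Sample titles gave the line and the replicate number. The deposited file holds raw counts by gene symbol, and the authors' alignment used STAR 2.7.3a on GRCh38. Salmon 1.1.0 is also named, but the deposited counts are whole numbers and include non-coding genes, so the counting program, strandedness and the handling of multi-mapped reads are not given in the sources used here.

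Counts were analysed with edgeR 4.0.16 in R 4.3.3. Genes passing filterByExpr (minimum count 10) were kept, scaled by TMM (factors 0.968 to 1.07) and fitted by a quasi-likelihood model of the 3 groups over all 9 libraries. Each pair of groups was tested with glmQLFTest, 2-sided, with Benjamini-Hochberg adjustment over all 15717 genes. The standard error (SE) is the absolute log2 fold change divided by the square root of F. The biological coefficient of variation was 10.4%. The script was tested on simulated data. Exonic lengths and positions came from GENCODE v44, which paired 36923 symbols with a single gene, and promoter windows from RefSeq. Shares were compared by 2-sided exact permutation tests in SciPy 1.17.1.

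Every member is named. From each related list and comparison, up to 2 genes with the highest and up to 2 with the lowest log2 fold change are named among changed genes with an absolute value of at least 1 and no overlap in CPM. The members and lists were chosen with earlier results of these data known. Floors cover counting error only. Alternatives changed the test (DESeq2 1.42.0), the scaling (RLE or total counts alone), the filter (absent, or 50 counts on average), the threshold (0.01), or the samples and terms (6 libraries fitted alone, a replicate block, each library left out). SPRR paralogs were also summed and the median of chromosome 17 subtracted. A further gene of the marker lists is not reported here.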

Additional observations from a re-analysis of the deposited data

Results flagged for a closer look

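The same list was compared with CT in MC26 and in M1B26, and the difference between these effects equals the difference between the derived lines, which edgeR tested directly. It was called for 12 of the 25 tested members, against 39.5% of all tested genes. Lower in M1B26 than in MC26 were IVL (log2 difference -3.52), DSP (-0.69), ABCA12 (-0.44) and DSC3 (-0.28). The remaining 8 were higher in M1B26: GRHL3 (1.63), SCEL (1.12), GRHL1 (0.97), CNFN (0.96), DSC2 (0.87), CSTA (0.58), JUP (0.56) and EVPL (0.45). The CPM ranges of MC26 and M1B26 did not overlap for 14 of the 25 tested members, called or not, and for 53.5% of all tested genes. JUP and EVPL lie on chromosome 17, where the median of other tested genes differed by 0.48. The DSC3 call was lost in 5 of the 9 fits that left out a library (log2 -0.29 to -0.20) and the ABCA12 call in 4 (log2 -0.43 to -0.31).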

How the results depend on the processing

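The counts of changed members stayed within 1.5 times the reported ones under DESeq2, other scalings and filters, fits of 6 libraries and summed SPRR paralogs. At an adjusted p under 0.01, 9 members were called in MC26 and 9 in M1B26 against CT, and 17 genes of the related lists between the derived lines. Leaving out each library in turn gave 11 to 17, 10 to 16 and 10 to 14 members, and 29 to 32, 27 to 32 and 17 to 32 genes of the related lists, in the order MC26 against CT, M1B26 against CT and between the derived lines. The 17 came without MC26 replicate 2. Calls made under every alternative with a test numbered 9 of 16, 9 of 14 and 9 of 12, and of the members not called, 2 of 9, 4 of 11 and 5 of 13 passed under some alternative. Among called differences, the sign changed only for EVPL between the derived lines, -0.025 once the chromosome 17 median was subtracted, a setting without a test. Of those not called, 3 of 9, 5 of 11 and 6 of 13 changed sign under some alternative, with EVPL and JUP at -0.35 and -0.38 in M1B26 against CT under that subtraction. The causes were not tested. Without the filter 22, 19 and 15 of 38 members were called.

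Replicate numbers come from the titles, and samples shared only a number: deviations from the line means of same-numbered libraries correlated between -0.173 and 0.357 over 10635 genes, and CT replicate 1 correlated more with MC26 replicate 3 (0.307) than with MC26 replicate 1 (-0.164). With the replicate block, 15, 12 and 13 members and 32, 32 and 27 genes of the related lists were called. The 16 members below the filter got no test, and the floor of 3 counts was 0.0366 to 0.131 CPM.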

Other observations

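Neighbours of members gave values of their own. PERP lies between TNFAIP3, a brake on NF-kB signalling, and ARFGEF3. PERP itself differed little from CT, whereas TNFAIP3 was higher by 1.78 on the log2 scale in MC26 and by 2.09 in M1B26 (edgeR adjusted p = 1.00e-06 and 2.07e-07), and ARFGEF3 differed by -2.07 and -2.30 (edgeR adjusted p = 0.000795 and 0.000263). DMKN, the dermokine gene beside SBSN, differed from CT by -0.30 in MC26 and by 0.57 in M1B26 (edgeR adjusted p = 0.00635 and 7.20e-05). CDH2, N-cadherin, the tested neighbour of DSC3 at a distance of 2811419 bases, differed by -1.03 in MC26 and -1.70 in M1B26 (edgeR adjusted p = 7.92e-05 and 1.95e-06). S100A9, the nearest tested gene beyond SPRR2D, had means of 141, 357 and 767 CPM in CT, MC26 and M1B26, with a log2 difference from CT of 2.44 in M1B26 (edgeR adjusted p = 0.0029) and 1.34 in MC26 (0.0576). Neighbours were chosen by position alone, the nearest tested gene on each side, and these were named after their values were seen.

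The basal keratin KRT14, a marker and no member, rose from 58.3, 42.2 and 61.7 CPM in CT to 1521, 766 and 1003 CPM in MC26 and 461, 558 and 625 CPM in M1B26. Its log2 difference from CT was 4.34 ± 0.25 in MC26 and 3.33 ± 0.24 in M1B26 (edgeR adjusted p = 8.75e-07 and 2.07e-06). Its partner KRT5 had means of 6583, 6261 and 4922 CPM in CT, MC26 and M1B26.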
